A study of Mus musculus with 1 sample.

Results

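The 9 genes described here encode receptors through which bone marrow progenitors receive cytokines. They are *Kit*, *Flt3*, *Epor*, *Csf3r*, *Csf2ra*, *Csf2rb*, *Csf2rb2*, *Csf1r* and *Il3ra*, chosen by name, and all 9 were found among the 54532 Ensembl genes of the table. The RNA came from c-kit+ BM cells of Ctrl mice, C57BL/6 animals of wild type genotype, which served as the comparison for *Gadd45g*-deficient mice with a myeloproliferative neoplasm (MPN), a disease with excess output of mature myeloid cells. The description of the sample adds that the gate was negative for lineage antigens and for Sca-1. The age of these mice and the number pooled are not given in the sources used here, and the library of the mice with MPN was not analysed here. Only 1 library was therefore available, without replicates, so the values below are levels within it and no test between groups was made.

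Cytokine receptors bind a secreted ligand outside the cell and start phosphorylation inside it. *Kit*, *Flt3* and *Csf1r* encode receptor tyrosine kinases of class III, which carry their own kinase domain. The products of the other 6 genes have none, and the receptors that they form signal through bound JAK kinases. The erythropoietin receptor and the G-CSF receptor pair with a second copy of themselves, whereas the receptors for GM-CSF and IL-3 combine an alpha chain, which binds the ligand, with a beta chain, which carries the signal. In the mouse the beta chain exists in 2 forms, the common chain encoded by *Csf2rb* and a form particular to IL-3 encoded by *Csf2rb2*.

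The beta chain genes are near-identical copies, and their coding sequences are shown first because reads that fall where they agree cannot be assigned to either gene. Both lie on chromosome 15 of GRCm38 in opposite orientation, *Csf2rb* (ENSMUSG00000071713) on the forward strand at chr15:78325752-78353847 and *Csf2rb2* (ENSMUSG00000071714) on the reverse strand at chr15:78282507-78305721. The coding sequence of the longest coding transcript in GENCODE M21 is 2691 bases for *Csf2rb* and 2637 bases for *Csf2rb2*, stop codon included. Aligned end to end, they were identical at 2505 of 2631 positions without a gap, or 95.2%, and differed at 126. The longest stretch without a difference was 242 bases, from coding position 2083 to 2324 of both genes and within 1 exon. It lies at chr15:78348577-78348818 in *Csf2rb* and at chr15:78284630-78284871 in *Csf2rb2*, and is printed once for both, 5′ to 3′ on the coding strand.
Csf2rb and Csf2rb2: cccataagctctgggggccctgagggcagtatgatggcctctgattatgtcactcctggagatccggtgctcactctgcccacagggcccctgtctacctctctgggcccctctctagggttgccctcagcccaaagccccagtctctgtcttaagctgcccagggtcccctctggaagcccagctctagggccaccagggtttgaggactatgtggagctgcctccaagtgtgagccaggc

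Differences between the genes were spread along the coding sequence, and most windows of 60 aligned bases held some. Among windows of 60 aligned bases without a gap, the highest number of differences was 11. The first such window, coding positions 298 to 357 of *Csf2rb* (chr15:78338887-78338946) and 301 to 360 of *Csf2rb2* (chr15:78294385-78294444), is printed with the differing bases in capitals.
Csf2rb: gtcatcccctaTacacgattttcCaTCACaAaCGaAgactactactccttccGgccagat
Csf2rb2: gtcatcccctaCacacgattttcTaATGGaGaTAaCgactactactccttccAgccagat

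Of all windows of 100 bases in the longest coding transcript, 6.96% in *Csf2rb* and 7.20% in *Csf2rb2* occurred in a transcript of another gene, which was the other beta chain gene in each case. With windows of 50 bases the shares were 18.4% and 19.5%, counting windows found in any of 13 other genes for *Csf2rb* and 26 for *Csf2rb2*. With 150 bases the shares, again only with the other beta chain gene, were 3.47% and 3.59%. The read length and the treatment of reads that map to several places are not given in the sources used here, so the levels of this pair are uncertain to an unknown extent.

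**Figure D1:**
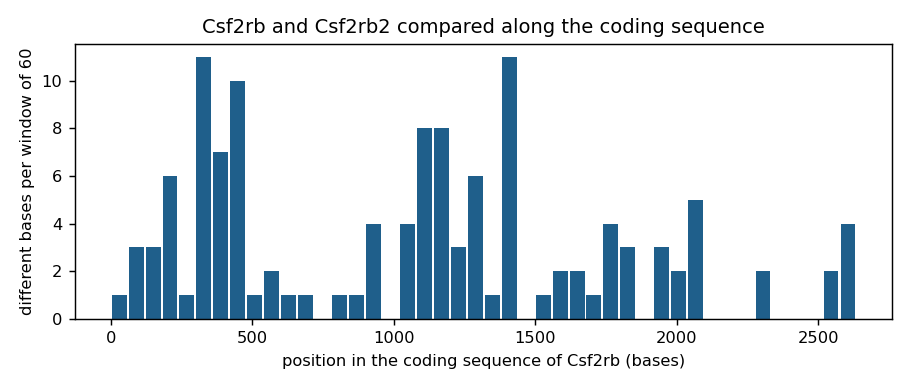
Differences between the coding sequences of *Csf2rb* and *Csf2rb2*. Each bar is the number of different bases in 1 window of 60 aligned columns (y axis), placed at its position in the *Csf2rb* coding sequence in bases (x axis). The last columns, fewer than 60, are left out. The tallest bars reach 11, and the windows from position 2095 to 2274 hold 0 differences.

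All 9 receptor genes reached 1 FPKM (fragments scaled to gene length and to sequencing depth), the level at which a gene was called detected. Of all genes in the library 22.2% reached it, and of the 21995 protein-coding genes 46.8%. At 10 FPKM, the level of 9.37% of all genes and 21.2% of protein-coding genes, 6 of the 9 remained, without *Il3ra*, *Kit* and *Flt3*. At 0.1 FPKM all 9 were above the minimum, as were 32.9% of all genes and 59.1% of protein-coding genes. Their median level was 34.9 FPKM. For all protein-coding genes the median was 0.600 FPKM, and for the 12111 genes at 1 FPKM or more it was 7.77 FPKM. Together they held 0.118% of the summed FPKM, and 41.7% of that was *Csf3r* alone. In bulk RNA a low level may mean few cells that carry the receptor or little mRNA in each, and these cannot be told apart.

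In the order of levels in FPKM as deposited, receptors of the granulocyte and macrophage lineages came first and those of early progenitors last. Part of this order changes with the gene length, and in fragments not divided by length *Il3ra* rather than *Flt3* was last. *Csf3r*, which encodes the G-CSF receptor that drives neutrophil production, stood at 212 FPKM, or 12070 recovered fragments (95% Wilson interval, 208 to 216 FPKM). Recovered fragments are the whole numbers that the FPKM values imply, and the intervals cover counting error only, not the spread between mice. *Csf2ra*, the alpha chain for GM-CSF, followed with 127 FPKM from 3695 fragments (interval, 123 to 131 FPKM).

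In the middle stood *Csf1r*, *Epor* and *Csf2rb*. *Csf1r*, whose product binds CSF1 and IL-34 and marks the monocyte and macrophage lineage, had 51.5 FPKM from 3969 fragments (interval, 49.9 to 53.1 FPKM). *Epor*, the erythropoietin receptor of red cell precursors, had 49.9 FPKM from 1565 fragments (interval, 47.4 to 52.4 FPKM). The intervals of these 2 genes overlap, with a ratio of 1.03 (exact binomial interval, 0.974 to 1.10), and they were the only neighbours in the order of which this was true. *Csf2rb* had 34.9 FPKM from 4003 fragments (interval, 33.8 to 35.9 FPKM).

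The lowest levels were those of *Csf2rb2*, *Il3ra*, *Kit* and *Flt3*. *Csf2rb2* had 11.9 FPKM from 887 fragments (interval, 11.1 to 12.7 FPKM), and *Il3ra*, the alpha chain for IL-3, had 8.93 FPKM from 418 fragments (interval, 8.11 to 9.82 FPKM). *Kit*, the receptor for stem cell factor and the antigen by which the cells were sorted, had 7.17 FPKM from 1008 fragments (interval, 6.74 to 7.62 FPKM). *Flt3*, which multipotent and lymphoid progenitors and dendritic cell precursors carry, was last, with 4.90 FPKM from 478 fragments (interval, 4.48 to 5.36 FPKM). *Csf3r* was thus 29.6 times *Kit* (exact binomial interval, 27.7 to 31.6) and 43.2 times *Flt3* (interval, 39.4 to 47.4). These ratios depend on the gene length, with *Csf3r* to *Kit* at 14.0 per coding sequence and 12.0 in undivided fragments, and *Csf3r* to *Flt3* at 30.2 and 25.3, or 26.5 per longest coding transcript. Of the genes at 1 FPKM or more, 98.1% lay below *Csf3r*, but 47.5% below *Kit* and 36.6% below *Flt3*.

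**Figure D2:**
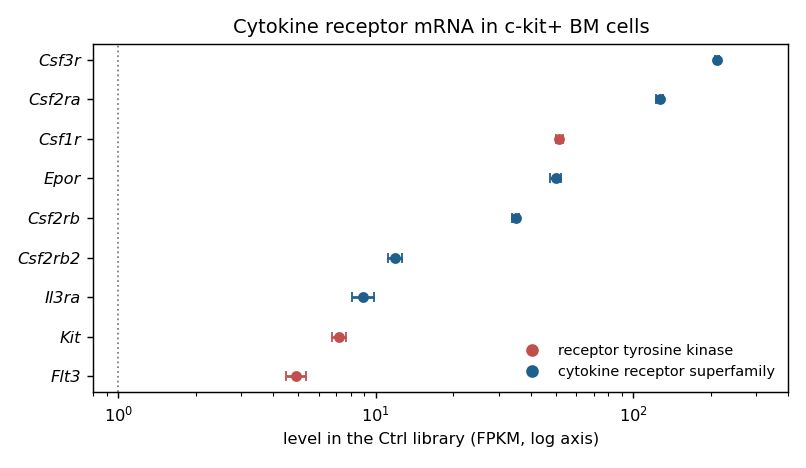
Levels of the 9 receptor genes in the Ctrl library in FPKM on a log axis. Points are the deposited values and bars their 95% Wilson intervals of counting error; red marks receptor tyrosine kinases, blue the cytokine receptor superfamily, and the dotted line 1 FPKM. The levels run from 212 FPKM for *Csf3r* to 4.90 FPKM for *Flt3*, and only the bars of *Csf1r* and *Epor* overlap between neighbours.

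The 3 receptor tyrosine kinases did not stand together. *Csf1r* (ENSMUSG00000024621), on the forward strand of chromosome 18 at 61100598 to 61132149, was 7.18 times *Kit* (interval, 6.70 to 7.70), but 4.39 times per longest coding transcript, 3.95 times per coding sequence and 3.94 times in undivided fragments. *Kit* in turn was 1.46 times *Flt3* (interval, 1.31 to 1.63). Both of the latter are on chromosome 5, *Kit* (ENSMUSG00000005672) on the forward strand at chr5:75574916-75656722 and *Flt3* (ENSMUSG00000042817) on the reverse strand at chr5:147330741-147400489. Other receptor tyrosine kinase genes that lie next to them were low. *Pdgfra*, 377 kb from *Kit*, had 0.0316 FPKM, *Kdr*, 276 kb away on the other side, had 0.203 FPKM, and *Pdgfrb*, 15.5 kb from *Csf1r*, had 0.625 FPKM. Of 15 other receptor tyrosine kinase genes, 5 were at 1 FPKM or more, and the median of the 15 was 0.625 FPKM. The highest was *Axl*, at 12.9 FPKM, above *Kit* and *Flt3* and below *Csf1r*, and the lowest was *Pdgfra*.

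The colony-stimulating factor receptors differed by more than counting error. *Csf3r* (ENSMUSG00000028859), on the forward strand at chr4:126024550-126044440, was 4.12 times *Csf1r* (interval, 3.97 to 4.27). It was 1.67 times *Csf2ra* (interval, 1.61 to 1.74), whose gene (ENSMUSG00000059326) is on the reverse strand at chr19:61223957-61228429. With the annotated exon length this ratio was 2.60, and in undivided fragments 3.27. *Epor* (ENSMUSG00000006235) lies on the reverse strand at chr9:21958897-21963506.

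Among the chains that assemble into 1 receptor, in FPKM as deposited, the alpha chain for GM-CSF exceeded the common beta chain, and the alpha chain for IL-3 was below both beta chains. *Csf2rb* was 0.275 times *Csf2ra* (interval, 0.263 to 0.288) and 3.90 times *Il3ra* (interval, 3.53 to 4.33), the latter (ENSMUSG00000068758) on the forward strand at chr14:14346275-14356011. *Il3ra* was 0.753 times *Csf2rb2* (interval, 0.669 to 0.847), but 1.04 times per coding sequence, so that this order turns with the length. *Csf2ra* was 14.2 times *Il3ra* (interval, 12.8 to 15.7), with 9.14 at the annotated exon length, 9.02 per coding sequence and 8.84 in undivided fragments. The alpha chain for IL-5, *Il5ra*, which eosinophils carry and which shares the common beta chain, had 3.30 FPKM from 186 fragments. The 3 alpha chains summed to 139 FPKM and the 2 beta chains to 46.7 FPKM, a ratio of 2.97. The ratio was 2.01 with the annotated exon length or per coding sequence and 2.22 per longest coding transcript, and it turned to 0.879 in undivided fragments, 4299 against 4890. Of the beta chains, *Csf2rb* was 2.94 times *Csf2rb2* (interval, 2.73 to 3.16), read with the uncertainty given above for this pair. Without division by gene length *Csf2rb* had 1.08 times the fragments of *Csf2ra*, so that its place below *Csf2ra* rests on the division by length.

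That length is known less well for some of these genes. FPKM times the summed exon length in GENCODE M21 gave a whole number of fragments for 7 of the 9 genes, but 5737.34 for *Csf2ra* and 4691.3 for *Csf1r*. For *Csf2ra* the only length of 200 to 2871 bases that made the level whole was 1849, the length of its longest coding transcript, which gives 3695 fragments. For *Csf1r* it was 4885, which gives 3969 fragments, where the annotation has 5774. The same search returned the annotated length for each of the other 7 genes, for 5 of them as the only length. With the annotated length for all genes, *Csf2ra* would be at 81.5 FPKM and *Csf1r* at 43.6 FPKM, below *Epor*. With the length of the longest coding transcript *Kit* would be at 12.2 FPKM, above both *Csf2rb2* at 11.9 FPKM and *Il3ra* at 11.4 FPKM, because the summed exons of *Kit* are 8911 bases and its longest coding transcript 5241. *Csf3r* and *Csf2ra* kept the first and second place, and *Flt3* the last, under each of these lengths and also per base of coding sequence.

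**Figure D3:**
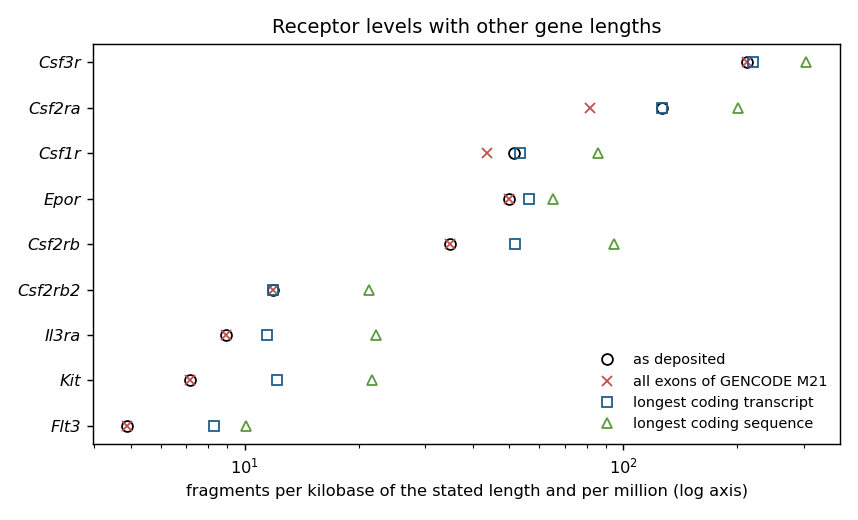
The same 9 levels computed with 4 gene lengths, on a log axis in FPKM computed with that length. Circles are the deposited values, crosses use all exons in GENCODE M21, squares the longest coding transcript and triangles the longest coding sequence. *Csf3r* lies furthest right for each length and *Flt3* furthest left, while *Csf1r* and *Epor* change places. *Csf2rb2*, *Il3ra* and *Kit* change places too. With the coding sequence *Csf2rb*, at 94.4, lies above *Csf1r*, at 85.8, and *Epor*, at 65.2.

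Fragments of some genes can also be lost to, or taken from, a gene that overlaps them. Of the exon bases of *Csf1r*, 873, or 15.1%, are also exon of *Hmgxb3* on the opposite strand, which had 5.40 FPKM. *Il3ra* shares 46 exon bases with an antisense gene, *Gm48860*, at 0.172 FPKM, and *Csf2rb* and *Csf2rb2* each share 62 with a miRNA gene listed at 0. Whether the counting used strand is not given in the sources used here. Windows of 100 bases of *Kit*, *Flt3*, *Epor*, *Csf2ra* and *Il3ra* occurred in no transcript of another gene, and 0.414% of those of *Csf3r* did. With windows of 50 bases the share for *Csf3r* was 11.5%, spread over 402 other genes, and the other genes of this comparison still shared none.

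The genes for the ligands of these receptors were mostly near 0 in the same library. Of 9 ligand genes 2 reached 1 FPKM, *Csf1*, which binds the product of *Csf1r*, at 4.52 FPKM from 377 fragments and *Flt3l* at 1.91 FPKM (interval, 1.60 to 2.29 FPKM). *Kitl*, which encodes stem cell factor, had 0.386 FPKM from 36 fragments (interval, 0.279 to 0.534 FPKM). *Csf2*, which encodes GM-CSF, and *Il34* had 2 fragments each, at 0.158 FPKM (interval, 0.0434 to 0.578 FPKM) and 0.0647 FPKM (interval, 0.0177 to 0.236 FPKM). *Epo*, *Csf3*, *Il3* and *Il5* were listed at 0. The limits set by 3 fragments were 0.222 FPKM for *Epo*, 0.135 FPKM for *Csf3*, 0.302 FPKM for *Il3* and 0.124 FPKM for *Il5*. In FPKM as deposited, each of the 9 receptor genes was above each of the ligand genes. *Flt3* was so by the least, at 4.90 against 4.52 FPKM for *Csf1*, where their intervals overlap. Per coding sequence the order of these genes turns, since *Csf1* had 377 fragments over 1656 bases and *Flt3* 478 over 3000.

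The genes that act next to the receptors were nearly all detected. Of 18 genes for kinases, STAT factors and adaptors, 18 were at 1 FPKM or more (median, 27.9 FPKM), and the lowest was *Sos1*, an exchange factor for RAS, at 2.88 FPKM. *Jak2*, which binds the receptors for erythropoietin and G-CSF and the beta chains, had 31.7 FPKM, and *Stat5b*, which these receptors activate, 32.3 FPKM. Of 12 negative regulators 11 were so (median, 23.1 FPKM). The highest was *Ptpn6*, the phosphatase SHP-1, at 167 FPKM, and the lowest *Socs2*, an inhibitor that cytokines induce, at 0.319 FPKM.

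**Figure D4:**
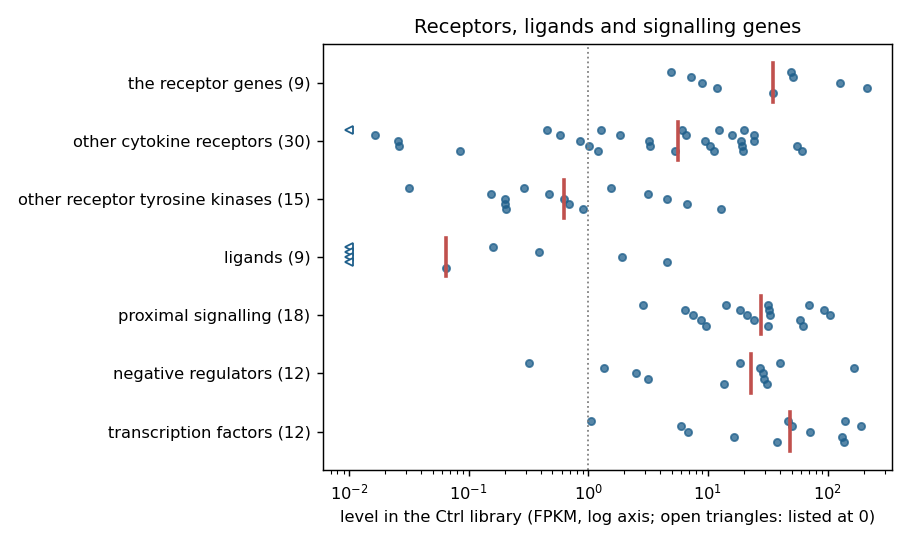
Levels in FPKM on a log axis of the 9 receptor genes, of other receptors, and of ligands and genes that act beside the receptors. Each point is 1 gene, red lines are medians, triangles at the left edge are genes listed at 0, the dotted line is 1 FPKM, and the number of genes is in brackets. The receptor genes have a median of 34.9 FPKM and the ligands of 0.0647 FPKM, with 4 ligands at 0.

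Factors known to control receptor genes were set beside them. All 12 were at 1 FPKM or more (median, 48.4 FPKM), from *Mitf*, of mast cells, at 1.05 FPKM to *Cebpb*, of myeloid cells, at 190 FPKM. *Spi1*, which encodes PU.1, had 137 FPKM, *Cebpe*, of maturing granulocytes, 131 FPKM, *Cebpa* 38.1 FPKM, and *Gata1*, of erythroid cells and megakaryocytes, 50.3 FPKM, while *Gata2*, of stem cells and mast cells, had 6.82 FPKM.

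Short letter patterns that such factors are known to bind were looked for on both strands of the 250 bases before the RefSeq start of each gene, in the RefSeq promoters of GRCm38.p6, which held 7 of the 9 genes. *Csf2rb* and *Csf1r* had no entry. These starts are not always the ends of the GENCODE spans given above. Along the gene, the RefSeq start lay 109 bases inside the span for *Csf3r*, 220 for *Il3ra*, 71 for *Kit* (the first of its 2 entries, the one used) and 11 for *Csf2ra*. The PU.1 pattern of *Csf3r* and the C/EBP pattern of *Il3ra* thus lie within those spans, and those of *Csf2ra* across the end of its span. For *Epor* the RefSeq start lay 70 bases outside the span, and for *Flt3* and *Csf2rb2* the starts were the same. The patterns were AGATAA or TGATAA for GATA factors, GAGGAA for PU.1, TTGCNNAA or TTGCNNCAA for C/EBP factors and the CACC box CCACACCC, and none of the matches overlapped another. They are shown, with the match in capitals and 30 bases in all, because the factors' mRNA was among the levels above. A match on the opposite strand appears as its complement, and the distance is from the RefSeq start to the first base of the match as printed.
Csf3r, C/EBP pattern, 166 bases before the RefSeq start (chr4:126024483-126024512): acgggccaggTTGCTACAAtgcccagccct
Csf3r, PU.1 pattern, 86 bases before (chr4:126024561-126024590): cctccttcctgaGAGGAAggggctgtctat
Csf2ra, PU.1 pattern at 14 and again at 8 bases before (chr19:61228419-61228448): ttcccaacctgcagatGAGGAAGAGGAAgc
Epor, GATA pattern on the opposite strand, 54 bases before (chr9:21963613-21963642): ggtggctgtagcTTATCTgtccccagcctg
Csf2rb2, PU.1 pattern on the opposite strand, 167 bases before (chr15:78305871-78305900): ctctgtgtctgcTTCCTCcagagaagtcag
Csf2rb2, CACC box on the opposite strand, 143 bases before (chr15:78305846-78305875): gtcagggaggtGGGTGTGGaggaggccatt
Csf2rb2, GATA pattern on the opposite strand, 38 bases before (chr15:78305742-78305771): atgtcgtgagtcTTATCAgaggctagtgtc
Il3ra, C/EBP pattern, 134 bases before (chr14:14346350-14346379): atctcaggaagTTGCTCAAtctcgggacca
Kit, PU.1 pattern, 223 bases before (chr5:75574752-75574781): ggagagtgctagGAGGAAgaggatccaggg

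*Flt3* held none of the patterns. Of 32851 RefSeq promoters of the same length, 23.3% held the PU.1 pattern, 16.6% a GATA pattern, 11.1% a C/EBP pattern and 3.20% the CACC box, so matches are common and describe the sequence only.

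Genes that mark blood cell types were abundant beside the receptors. All 9 neutrophil markers were detected, from 109 FPKM for *Cxcr2* to 26677 FPKM for *S100a9*, and they summed to 53325 FPKM, or 12.4% of the library's FPKM. Each of the neutrophil markers except *Cxcr2* and *Ly6g* lay above *Csf3r*. All 8 erythroid markers were detected, from 110 FPKM for *Rhag* to 25466 FPKM for *Hba-a1*, each above *Epor*, and they summed to 42900.3 FPKM. All 8 monocyte and macrophage markers were detected, from 7.37 FPKM for *Mrc1* to 72.7 FPKM for *F13a1*, with *Csf1r* between them. The 5 markers of granulocyte-macrophage progenitors (GMP) ran from 65.4 FPKM for *Ms4a3* to 781 FPKM for *Elane*, and the 4 eosinophil markers from 13.2 FPKM for *Ccr3* to 2766 FPKM for *Prg2*.

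Markers of stem and multipotent cells were mostly below 1 FPKM, at 3 of 9 above it, from 0.0510 FPKM for *Mecom* to 61.9 FPKM for *Cd48*. *Ly6a*, which encodes the Sca-1 antigen that the gate was to lack, had 28.5 FPKM, above *Kit*. In undivided fragments this order turns, with 543 for *Ly6a* and 1008 for *Kit*. Of the mast cell and basophil markers 5 of 7 were detected, up to 168 FPKM for *Prss34*, of basophils, while *Tpsb2*, of mast cells, was listed at 0. Of 6 dendritic cell markers 5 reached 1 FPKM, from 0.142 FPKM for *Xcr1* to 17.3 FPKM for *Siglech*. All 6 B cell markers were detected, from 8.58 FPKM for *Igll1* to 173 FPKM for *Cd79a*, all 5 T cell markers, from 2.62 FPKM for *Cd3e* to 11.1 FPKM for *Lck*, and 5 of 6 megakaryocyte markers, up to 38.7 FPKM for *Ppbp*, with *Gp1bb* listed at 0. Of the 9 receptor genes, none lay above the median of the neutrophil, GMP or erythroid list, 4 above that of the monocyte and macrophage list, and all 9 above those of the dendritic and stem cell lists. The labels name a gate for c-kit and against lineage antigens and Sca-1. In the paper's list of gates, GMP carry c-kit and lack lineage antigens and Sca-1. The same holds there for common myeloid progenitors and for megakaryocyte/erythroid progenitors, so all of these lie within this gate. *Kit* itself, at 7.17 FPKM, lay below every one of the GMP markers and also below every neutrophil and erythroid marker. How much of each receptor's level came from cells of each kind was not tested.

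**Figure D5:**
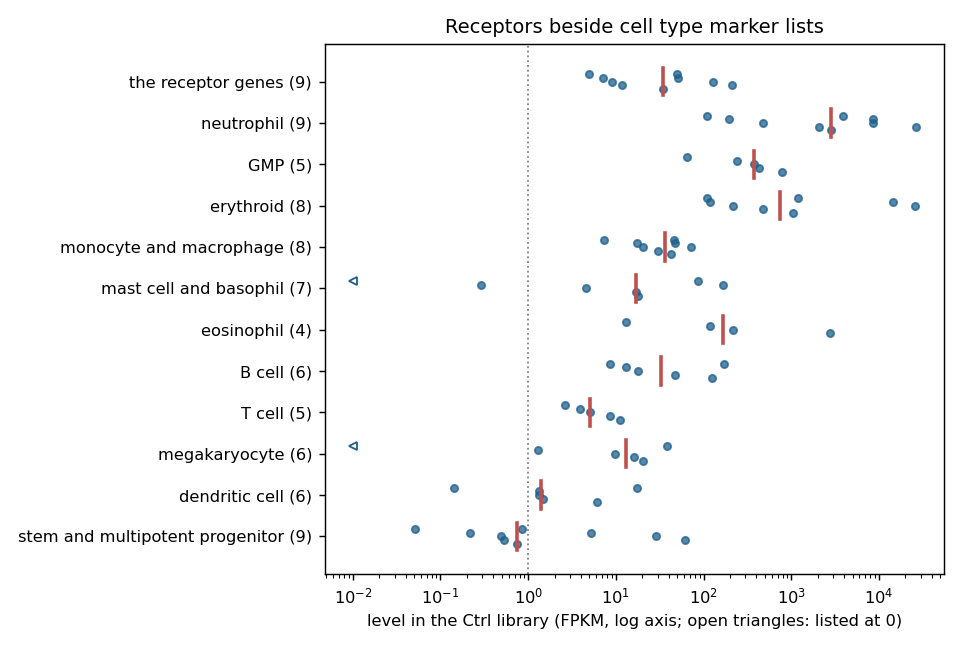
Levels in FPKM on a log axis of the 9 receptor genes and of lists of marker genes for blood cell types. Each point is 1 gene, red lines are medians, triangles at the left edge are genes listed at 0, and the dotted line is 1 FPKM. The neutrophil and erythroid lists, with medians of 2831 and 754 FPKM, lie to the right of the receptor genes, and the list of stem and multipotent progenitors, with a median of 0.749 FPKM, to their left.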

How the data were processed

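RNA from 1 library of Ctrl c-kit+ BM cells was read from a table of FPKM per Ensembl gene that the authors deposited. The submitters' processing notes name HISAT2 2.0.5, featureCounts 1.5.0-p3 and mm10. Gene symbols, positions and lengths were taken from GENCODE M21 (GRCm38), which held 54495 of the 54532 genes.

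The values of 96.4% of the genes above 0, multiplied by summed exon length, were whole multiples of 1 step within 0.01 fragment, 64.6% on chromosomes 17, 18 and 19 and 99.9% elsewhere. The genes with whole values held 15899824 fragments. For *Csf2ra* and *Csf1r*, which were not among them, the length was searched within a relative tolerance of 5e-10, and the 9 receptor genes then held 28093. Intervals (95%, Wilson for levels, Clopper-Pearson for ratios) cover counting error only, not the spread between mice. They treat fragments as independent, and PCR copies were not told apart, so they may be too narrow even for that error. A level of 0 was given the limit of 3 fragments. With 1 library there was no test, and thus no p-value.

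The 9 genes and the lists beside them were chosen with earlier results of these data known. Text names all receptors and ligands, the highest and lowest gene of each list, and genes with a role beside a receptor, except 1 gene that is not reported here. Overlapping and neighbouring genes, *Ly6a* and *Ly6g* were named after their values were seen. The alternatives tried were undivided fragments, other gene lengths, other detection minimums, and a total that left out the mitochondrially encoded genes or the 10 most abundant ones. Python 3.11.15, pandas 2.3.3, scipy 1.17.1 and biopython 1.88 were used. The recovery of fragments, but not the search for lengths, was tested on simulated data.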

Additional observations from a re-analysis of the deposited data

How the results depend on the processing

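All 9 receptor genes also reached 0.1 FPKM and 10 recovered fragments, and 6 of them 10 FPKM. Their median of 34.9 FPKM became 38.0 FPKM without the 10 most abundant genes in the total, 51.8 FPKM with the longest coding transcript as the length and 65.2 FPKM with the longest coding sequence. In the same order, their share of 0.118% became 0.160%, 0.0971% and 0.0701%. It was 0.123% without mitochondrially encoded genes and 0.164% of undivided fragments. The total of fragments also held rounded values of genes whose values were not whole. With undivided fragments, the ratio of *Csf2rb* to *Csf2ra* reversed, from 0.275 to 1.08, and the ratios of *Csf2rb* to *Csf2rb2*, *Csf2rb* to *Il3ra*, *Csf3r* to *Csf1r* and *Kit* to *Flt3* were 4.51, 9.58, 3.04 and 2.11. With the longest coding transcript, *Csf2rb* to *Csf2rb2* was 4.37, *Csf2rb* to *Csf2ra* 0.409 and *Csf2rb* to *Il3ra* 4.52. With the longest coding sequence, the ratios of *Csf2rb* to *Csf2rb2* and to *Csf2ra* were 4.42 and 0.469, and those of *Csf3r* to *Csf1r* and *Kit* to *Flt3* were 3.55 and 2.15. The annotated exon length for all 9 genes, an alternative chosen after seeing the data, gave 0.427 for *Csf2rb* to *Csf2ra*, 4.87 for *Csf3r* to *Csf1r* and a share of 0.106%. The other ratios and the sum of chains under these lengths, also chosen after seeing the data, stand beside their values above. These changes follow from the lengths and totals put in. No paired analysis was possible because there was 1 library, and the spread between mice is unknown.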

Other observations

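Receptors of other cytokines were also present. Of 30 further genes for type I and II cytokine receptors, 22 were at 1 FPKM or more, the median of all 30 was 5.66 FPKM, and 8 of the 9 receptor genes described above lay over that median. The highest was *Ifngr1*, a chain of the interferon gamma receptor, at 60.7 FPKM, above *Csf1r* and below *Csf2ra*, and the lowest was *Cntfr*, listed at 0. *Il7r*, the alpha chain of the IL-7 receptor of lymphoid precursors, had 6.59 FPKM, between *Kit* and *Flt3* in FPKM as deposited. Its interval (6.03 to 7.20 FPKM) overlaps that of *Kit*. Per coding sequence their order turns, since *Il7r* had 485 fragments over 1377 bases and *Kit* 1008 over 2937. *Il6ra* and *Il4ra*, the binding chains for IL-6 and IL-4, had 18.9 and 19.3 FPKM, in FPKM as deposited between *Csf2rb* and *Csf2rb2*.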
